A study of Mus musculus with 15 samples.

Results

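The genes described here are 9 hepatokines and secreted metabolic hormones: Fgf21, Angptl4, Angptl8, Fst, Inhbc, Inhbe, Ahsg, Fetub and Lect2. They were chosen by name, and every RefSeq transcript with one of these mouse symbols was taken, which gave 13 transcripts among the 28167 of the count tables, or 9 of 20097 genes. Ahsg and Fetub had 3 transcripts each, the others 1. Where a gene had several, the transcript with the highest mean count stands for it.

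The counts are ribosome footprints, that is, mRNA fragments protected by ribosomes, from whole livers of wild-type male C57BL/6N mice that were 8 to 10 weeks old. All mice had lived under 12 h of light (400 lx) and 12 h of darkness, then spent 24 h in constant darkness before the first sampling, and carried no transgene or drug treatment. Livers were taken every 4 h at 7 circadian times (CT0 to CT24), with 2 mice and hence 2 libraries per time. The tests below for differences among times rest on the spread between the 2 mice of a time. The tests for a 24-h cosine also count departures of the times from a cosine as spread. The rank test for rhythms uses the order of all libraries. Footprint counts depend on the amount of an mRNA as well as on its translation, and the 2 cannot be told apart here. The question put to these genes is whether their footprints followed the time of day in animals without light cues.

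Hepatokines are proteins that the liver secretes into the blood and that act on metabolism in other tissues. Several of them report the nutritional state: FGF21 rises with fasting and protein restriction, ANGPTL4 with fasting and ANGPTL8 with feeding, and both angiopoietin-like proteins restrain lipoprotein lipase, the enzyme that releases fatty acids from circulating triglycerides. The activins encoded by Inhbc and Inhbe are TGF-β family ligands made mainly by hepatocytes, and follistatin (Fst) binds and neutralizes activins. The fetuins Ahsg and Fetub and the chemotactic factor Lect2 are abundant or moderately abundant plasma proteins of hepatocyte origin.

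The genomic setting of the members is given on GRCm38.p6, the build named for the alignment being mm10. Fgf21 is at chr7:45613890-45615490, Angptl4 at chr17:33774900-33781575 and Angptl8 at chr9:21835510-21837347, where it lies inside Dock6 on the other strand with 0 nt of shared exon. Inhbe (chr10:127349402-127351848) and Inhbc (chr10:127356322-127370548) are neighbors separated by 4473 nt. Ahsg (chr16:22892015-22899451) and Fetub (chr16:22918382-22939768) are neighbors as well, 18930 nt apart. Fst is at chr13:114452262-114458989 and Lect2 at chr13:56529734-56548559. Ahsg exons overlap an antisense gene, Gm30505, over 62 nt, and Fst exons overlap the antisense Gm41074 over 51 nt. Whether reads were assigned by strand is not given in the sources used here.

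RefSeq promoters, from 250 bases before to 50 bases after a start site, were at hand for 8 start sites of 7 members and were searched on both strands for 7 short motifs. The element TGATGNAAT, the core bound by C/EBP and ATF factors such as ATF4, was found before Fgf21 and Angptl8, and the E-box CACGTG, to which CLOCK and BMAL1 bind, before Fgf21. These windows are shown because they are the only matches to clock or nutrient-sensing motifs among the members, with the motif in capitals.
Fgf21 C/EBP-ATF element, chr7:45615622-45615630, read on the gene's strand: agacccccccATTGCATCAtccgtccagg
Angptl8 C/EBP-ATF element, chr9:21835380-21835388: gccatcagtcTGATGCAATggctgagcct
Fgf21 E-box, chr7:45615535-45615540: agtggggagggCACGTGggcgggcctgt
Of 32851 promoters of the same length in the table, 0.965% held the C/EBP-ATF core and 7.15% the E-box. The D-box TTATGTAA (0.938% of all promoters), the ROR core TAGGTCA (2.61%), the PPAR direct repeat (0.0396%) and the glucocorticoid receptor core (0.971%) had no match in the 8 windows. A TATA box, TATAAA (13.6% of all promoters), preceded Fgf21 and the upstream start site of Fetub. A match describes letters and is no evidence that a factor was bound.

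Total counts per library, summed over transcripts, ranged from 40593197 to 90458783. Reads shared by transcripts of a gene, as in Ahsg, entered these sums more than once. The sums are therefore not numbers of sequenced reads, and the values per library total below rest on them. Values are given as reads per 1000000 (CPM) of library totals scaled by TMM, a normalization based on the bulk of transcripts. Relative to the plain total, TMM moved the log2 values of a library by -0.55 to 0.44, and 18 transcripts with a Mup symbol (major urinary proteins) took 34.2% to 57.6% of the counts. All 4 clock genes used to check the time labels passed the rhythm test, with fitted peaks at 23.0 h for Arntl, 8.54 h for Nr1d1, 11.2 h for Dbp and 16.5 h for Per2. The 6 hepatocyte markers summed to 33185 to 46991 CPM, against 71.8 to 130 CPM for 6 Kupffer cell markers, 94.98 to 154 CPM for 6 endothelial and 99.7 to 151 CPM for 6 stellate cell markers. The library CT20 replicate 2 stood apart, with 3572 CPM summed over 8 pancreatic acinar markers against 2.55 to 72.6 CPM in the other 13 libraries. All counts of CT16 replicate 2, whose file by its label also holds a second sequencing run, were even numbers, and whether its reads were entered in duplicate was not tested. The lowest Kupffer cell sum was that of CT16 replicate 1, and the lowest endothelial and stellate cell sums were those of CT16 replicate 2. In whole tissue, fewer cells of a type and less RNA per cell cannot be told apart.

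Per length of coding sequence (CDS), the members lay far apart. CDS reads per kilobase and 1000000 reads (RPKM, TMM-scaled) averaged 2826 ± 212 (SD, n = 14 libraries) for Ahsg, which ranked 27 among 11747 genes tested, and 197 ± 15.5 for Fetub, which ranked 209. Lect2 followed at 56.1 ± 7.11 RPKM, Angptl8 at 42.9 ± 30.0, Inhbc at 27.0 ± 3.84, Angptl4 at 17.6 ± 7.70 and Inhbe at 16.3 ± 7.26. Fst stood at 0.796 ± 0.509 RPKM and Fgf21 at 0.0443 ± 0.0587 RPKM. Ahsg was above Fetub, Fetub above Lect2, and Inhbe above Fst in 14 of 14 libraries. The middle of the order was not settled: Lect2 was above Angptl8 in 11 of 14 libraries, Angptl8 above Inhbc in 9, Inhbc above Angptl4 in 12 and Angptl4 above Inhbe in 6, so Angptl4 and Inhbe did not differ beyond their spread.

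**Figure D1:**
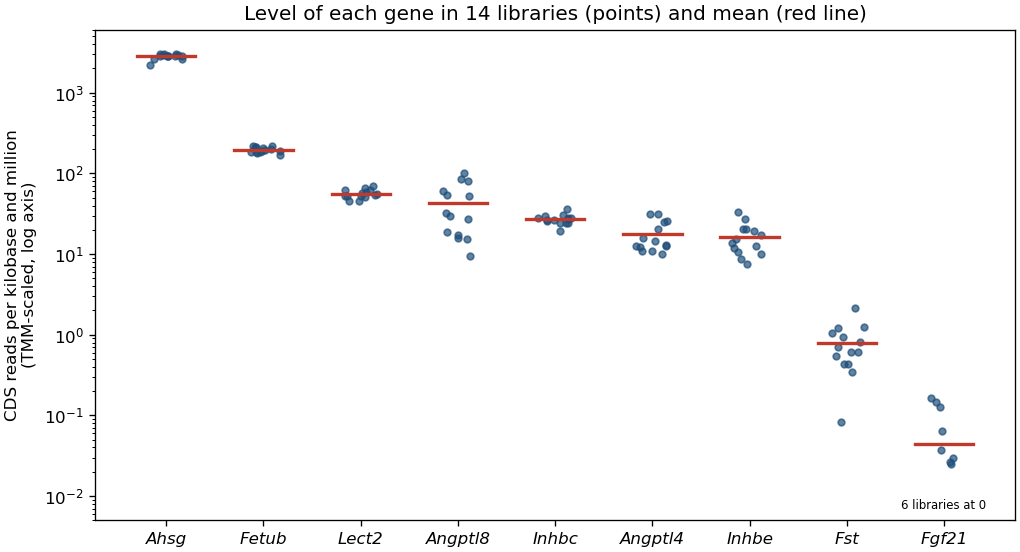
CDS RPKM (TMM-scaled totals, log axis) of the 9 genes in order of their mean. Each point is 1 of 14 libraries, the red line is their mean, and libraries at 0 are given as a count. Ahsg is highest (mean 2826) and Fgf21 lowest (mean 0.0443), and the points of Angptl8, Angptl4 and Inhbe are spread more widely than those of Ahsg, Fetub, Lect2 and Inhbc.

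The members differed in how far they varied between libraries. Over the 14 libraries the coefficient of variation of the TMM-scaled CPM was 69.8% for Angptl8, 63.9% for the low-count Fst, 44.0% for Angptl4 and 43.2% for Inhbe. It was 7.44% for Ahsg, 7.63% for Fetub, 12.5% for Lect2 and 13.6% for Inhbc. With the total count as scale these steadier genes varied more, with 21.6% for Ahsg, 20.9% for Fetub, 22.9% for Lect2 and 28.5% for Inhbc, against 41.2% to 86.5% for Inhbe, Angptl4, Fst and Angptl8. Apart from Fst and Fgf21, the members had a mean of over 1000 reads per library, and the median of the 2978 transcripts at or above that mean was 14.4%. Within that set Angptl8 was at the 98.9th percentile, Angptl4 at the 96.4th and Inhbe at the 96.3rd, and Ahsg and Fetub were at the 3.36th and 3.76th.

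None of the 8 members with a mean of at least 10 reads passed the test for a cosine of 24 h (edgeR quasi-likelihood F test, Benjamini-Hochberg adjusted p under 0.05). Across all 17299 transcripts tested, 11.3% passed. At an unadjusted p under 0.05 there were 3 members (Angptl8, Inhbe and Angptl4), where 24.4% of all transcripts passed. The DESeq2 likelihood ratio test with adjustment called 0 members and 2509 of all transcripts. The members had a median peak-to-trough difference of 0.54 (log2), against 0.44 over all transcripts tested. A test for any difference among the 7 times, which does not need a cosine shape, called 2 of the 8 members, Angptl8 and Inhbe, where 7.08% of all transcripts passed; DESeq2 called 3, Fst being the third, and 12.7% of all transcripts. The median range over the 7 time means was 0.92 (log2) for the members and 0.74 for all transcripts tested.

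**Figure D2:**
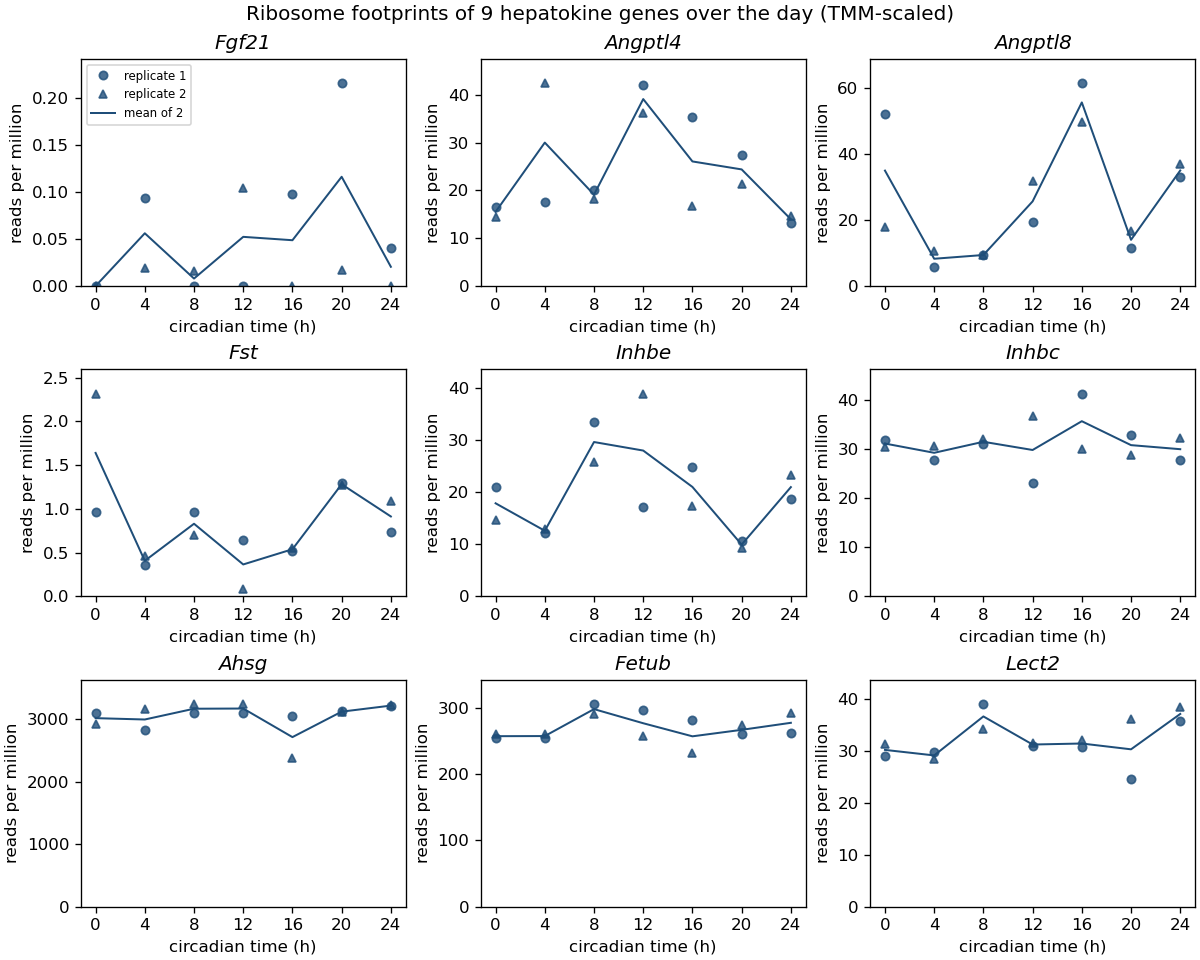
Ribosome footprints of the 9 genes in CPM (TMM-scaled) against circadian time in hours, with 2 libraries per time (circle, replicate 1; triangle, replicate 2) and a line through their means. Angptl8 is highest at CT16 (61.5 and 49.9) and lowest at CT4 (5.84 and 10.7), Angptl4 has its highest mean at CT12, Inhbe its lowest at CT20, and Ahsg, Fetub, Lect2 and Inhbc stay within a narrow range. The vertical scales differ between genes.

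Angptl8, the feeding-induced restrainer of lipoprotein lipase, showed the widest swing of the members with ample reads. Its footprints stood at 52.2 and 17.8 CPM at CT0, 5.84 and 10.7 CPM at CT4, 9.42 and 9.39 CPM at CT8, and 19.5 and 31.9 CPM at CT12. They stood at 61.5 and 49.9 CPM at CT16, 11.4 and 16.6 CPM at CT20, and 32.9 and 37.2 CPM at CT24. Both CT16 libraries were above both libraries of every other time except CT0, whose replicate 1 lay between them and whose pair disagreed by more than any other. The CT20 libraries were low again and lay below all libraries of CT12, CT16 and CT24. By the means, there was a high early in the subjective night, a fall and a second high around subjective dawn. That second high rested on the CT24 pair and CT0 replicate 1, as CT0 replicate 2 (17.8 CPM) lay near CT20 replicate 2 (16.6 CPM). It was not tested as such.

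From CT4 (mean 8.27 ± 3.43 CPM, SD, n = 2) to CT16 (55.7 ± 8.20 CPM, n = 2) the mean of Angptl8 rose 6.74-fold. The difference among the 7 times passed the edgeR test (adjusted p = 0.000556), and did so when any of the 14 libraries was left out (adjusted p from 3.31e-05 to 0.00357). The cosine did not pass (adjusted p = 0.0576), with a fitted peak at 18.4 ± 1.32 h. The peak-to-trough difference (log2) was 2.32 in the edgeR fit and 1.94 ± 0.76 (SE) by least squares. With the total count as scale the cosine passed (adjusted p = 0.0194, where 8.24% of all transcripts passed). It also passed without CT0 replicate 1 (0.0326), CT20 replicate 1 (0.00657) or CT20 replicate 2 (0.0129). The low at CT20 was present in replicate 1, where the acinar markers summed to 5.93 CPM, as well as in replicate 2, where they summed to 3572 CPM; the part of acinar RNA in either low was not tested.

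The lipase genes of the liver differed in their profiles. Lpl, the lipoprotein lipase gene, stood at 16.5 and 25.8 CPM at CT4 and at 4.00 and 7.01 CPM at CT16. At CT0 it stood at 17.4 and 18.6 CPM, at CT20 at 7.29 and 8.86 CPM and at CT24 at 15.8 and 17.5 CPM, so Lpl ran opposite to Angptl8 at CT4 and CT16 and was high or low with it at CT0, CT20 and CT24. Its cosine passed (peak-to-trough 1.92 on the log2 scale, fitted peak at 4.04 ± 0.447 h, adjusted p = 2.48e-05). The marker sums of other liver cells that were lowest at CT16, as given above, moved with this low, and their part in it was not tested. Lipc, the hepatic lipase gene, averaged 68.5 CPM and swung by 0.20 (log2, adjusted p = 0.661).

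The 3 genes whose profile over the 14 libraries was most like that of Angptl8 were Bag3 (Pearson r = 0.909), Hspa8 (0.903) and Luc7l (0.891), of 8222 genes compared. Bag3 encodes a co-chaperone and Hspa8 the constitutive 70-kDa heat shock cognate protein. Hspa8 stood at 41.4 and 33.0 CPM at CT4, 228 and 250 CPM at CT16 and 92.8 and 74.0 CPM at CT20, with a difference among times (adjusted p = 1.21e-05). These likenesses are descriptions over libraries that share time, depth and tissue, with no test.

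**Figure D3:**
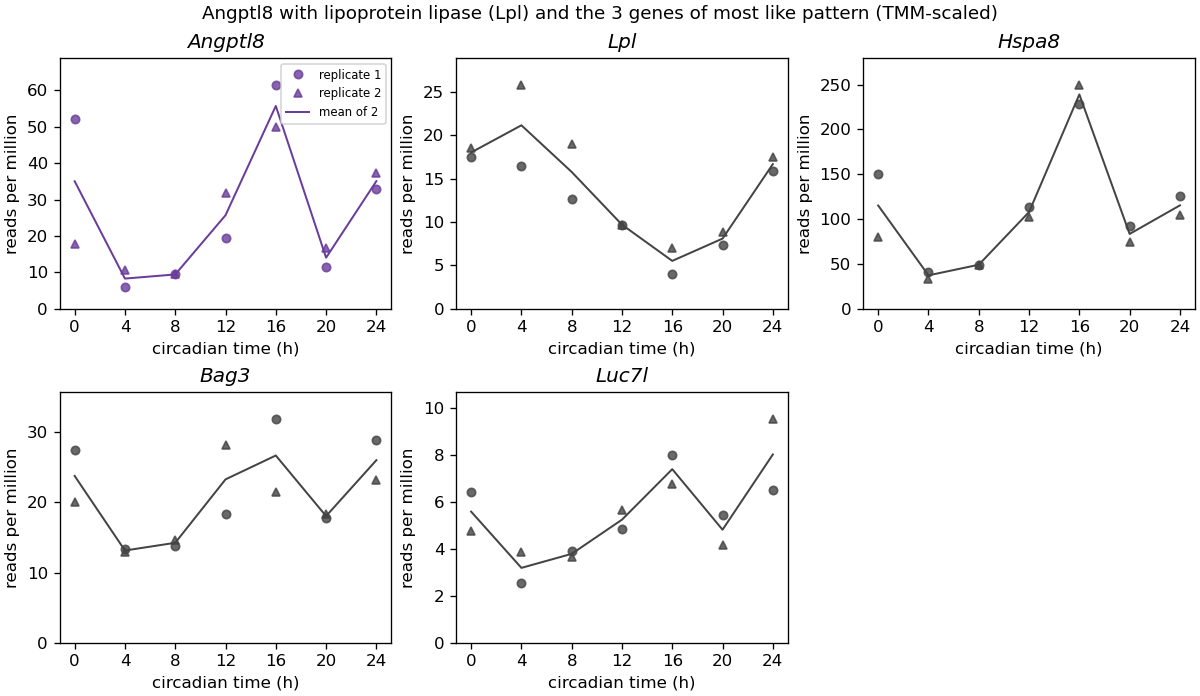
Footprints in CPM (TMM-scaled) against circadian time in hours for Angptl8, the lipase gene Lpl and the 3 genes of most like profile (Hspa8, Bag3, Luc7l), with 2 libraries per time and a line through their means. Hspa8, Bag3 and Luc7l share the CT4 to CT8 low and the CT20 dip of Angptl8, and Lpl has its lowest mean at CT16.

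Angptl4, the fasting-induced inhibitor of lipoprotein lipase, had its highest mean at CT12. Its footprints stood at 16.6 and 14.4 CPM at CT0, 17.6 and 42.4 CPM at CT4, 20.1 and 18.1 CPM at CT8, and 42.0 and 36.2 CPM at CT12. They stood at 35.3 and 16.8 CPM at CT16, 27.4 and 21.4 CPM at CT20, and 13.2 and 14.7 CPM at CT24. Both CT12 libraries exceeded all but CT4 replicate 2, and the pairs at CT4 and CT16 were wide apart. The CT12 mean (39.1 ± 4.10 CPM, n = 2) was 2.80-fold the CT24 mean (13.9 ± 1.01 CPM, n = 2).

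Neither edgeR test was passed by Angptl4. The difference among the 7 times lay just beyond the threshold (adjusted p = 0.0503), and from 0.00701 without CT4 replicate 1 to 0.158 without CT12 replicate 1. It passed without either CT4 library, without either CT16 library and without CT20 replicate 2. The cosine gave a least-squares peak-to-trough difference of 0.91 ± 0.38 (SE, log2), a fitted peak at 11.9 ± 1.79 h and an adjusted p of 0.145, which became 0.00375 without CT4 replicate 2. Fat tissue also makes Angptl4; the 6 white fat markers summed to 1.98 to 6.97 CPM, and 4 of them (Adipoq, Plin1, Lep and Retn) had under 10 reads per library on average. The profiles nearest to Angptl4 were those of Elk4 (r = 0.787), Nptn (0.779) and Psenen (0.776).

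Fgf21, the fasting hormone that signals through FGF receptors and the co-receptor β-Klotho, had very few ribosome footprints. Over all 14 libraries its transcript held 32 reads, 23 in the CDS and 9 in the 5′UTR. The libraries held 0 and 0 reads at CT0, 6 and 1 at CT4, 0 and 1 at CT8, 0 and 6 at CT12, 6 and 0 at CT16, 9 and 1 at CT20, and 2 and 0 at CT24. In 6 libraries the count was 0, which allows up to 3 reads or 0.0370 to 0.0598 CPM there, counting error only; if the reads of CT16 replicate 2 were entered in pairs, its limit is 0.120 CPM. Of the 9 reads in CT20 replicate 1, 8 lay in the 5′UTR. With a mean below 10 reads per library, Fgf21 entered no test.

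Klb and FGF receptor genes were measured at higher levels. Klb, which encodes β-Klotho, averaged 10.3 CPM and peaked at 7.60 ± 1.13 h, with means of 15.9 ± 3.99 CPM at CT8 and 8.33 ± 1.69 CPM at CT16 (n = 2 each, cosine adjusted p = 0.0456). Fgfr1 averaged 1.11 CPM, with means of 2.49 ± 0.913 CPM at CT12 and 0.644 ± 0.297 CPM at CT4 (adjusted p = 0.0151). Fgfr2 peaked at 8.02 ± 0.900 h and swung by 0.59 (log2) from peak to trough (adjusted p = 0.0458). Fgfr4, the main FGF receptor of hepatocytes, averaged 11.2 CPM and did not pass (adjusted p = 0.0813). With the total count as scale, none of the 3 called genes passed (adjusted p = 0.503 for Klb, 0.111 for Fgfr1 and 0.682 for Fgfr2). Nor did they pass the edgeR test for any change with TMM (adjusted p = 0.0811, 0.0576 and 0.203 in the same order).

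Inhbe, the activin E subunit gene, had its highest means at CT8 and CT12 and its lowest at CT20 and CT4. Its footprints stood at 21.04 and 14.7 CPM at CT0, 12.2 and 13.0 CPM at CT4, 33.6 and 25.7 CPM at CT8, and 17.1 and 39.0 CPM at CT12. They stood at 24.8 and 17.3 CPM at CT16, 10.7 and 9.23 CPM at CT20, and 18.7 and 23.4 CPM at CT24. The CT20 pair lay below every other library, the CT4 pair came next, and the CT12 pair disagreed most. The CT8 mean (29.7 ± 5.56 CPM, n = 2) was 2.98-fold the CT20 mean (9.95 ± 1.02 CPM, n = 2).

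The difference of Inhbe among the 7 times passed the edgeR test (adjusted p = 0.0167). It was lost without CT8 replicate 1 (0.0521), and it passed when any other library was left out. The cosine did not pass (adjusted p = 0.134), with a least-squares peak-to-trough difference of 0.92 ± 0.41 (SE, log2) and a fitted peak at 9.79 ± 1.78 h. With the total count as scale the fitted swing was 0.36 (log2, adjusted p = 0.739), while the difference among times passed (0.0134). Without CT20 replicate 2, which held the acinar signal, the difference among times passed as well (0.0436). The nearest profiles were those of Iffo2 (r = 0.855), Tbc1d10a (0.843) and Ppargc1b (0.799), the last a coactivator of nuclear receptors.

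Inhbc, the activin C subunit gene next to Inhbe, ranged only from 23.0 to 41.4 CPM, with a median of 30.9 CPM. Its cosine gave a least-squares peak-to-trough difference of 0.15 ± 0.16 (SE, log2; adjusted p = 0.758), and the difference among times an adjusted p of 0.945. Per kilobase of CDS, Inhbe relative to Inhbc in the same library stood at 0.619 and 0.439 at CT0, 0.414 and 0.398 at CT4, 1.04 and 0.741 at CT8, and 0.654 and 1.07 at CT12. It stood at 0.567 and 0.516 at CT16, 0.291 and 0.313 at CT20, and 0.634 and 0.685 at CT24. This ratio needs no library scale, and its lowest values again were the CT20 pair; the ratio itself was not tested.

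**Figure D4:**
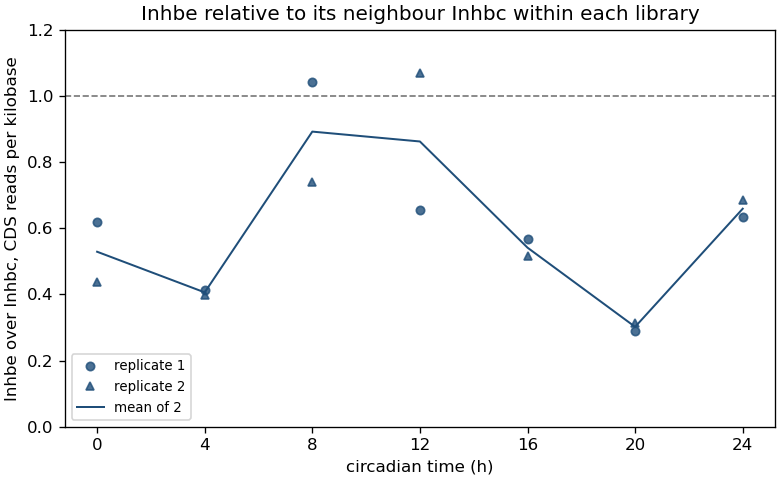
Ratio of Inhbe to Inhbc, both as CDS reads per kilobase, within each of the 14 libraries against circadian time in hours (circle, replicate 1; triangle, replicate 2; line, mean of the pair). The ratio exceeds 1 in CT8 replicate 1 (1.04) and CT12 replicate 2 (1.07) and is lowest in the CT20 libraries (0.291 and 0.313).

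Fst, whose product follistatin neutralizes activins, was a low-count gene with 5 to 144 reads per library. It stood at 0.962 and 2.32 CPM at CT0, 0.356 and 0.455 CPM at CT4, 0.963 and 0.696 CPM at CT8, and 0.642 and 0.0870 CPM at CT12. It stood at 0.518 and 0.558 CPM at CT16, 1.29 and 1.27 CPM at CT20, and 0.734 and 1.09 CPM at CT24. The CT20 pair was above all libraries but CT0 replicate 2, and the pairs at CT0 and CT12 disagreed. Neither test was passed (cosine adjusted p = 0.214, any change 0.241), although the latter passed with the total count as scale (0.0406), with DESeq2 (0.0485), with no filter on low counts (0.0215) and without CT12 replicate 1 (0.0315). Among activin receptors and antagonists, Tgfbr3, the betaglycan gene, passed the cosine test (adjusted p = 0.0366, and 0.587 with the total count as scale). Its means were 7.95 ± 1.02 CPM at CT8 and 4.17 ± 1.55 CPM at CT16 (n = 2 each). The edgeR test for any change did not pass for Tgfbr3 (adjusted p = 0.133).

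Ahsg, which encodes fetuin-A, a mineral carrier and inhibitor of insulin receptor signaling, was the member with the most footprints and, with TMM, one of the steadiest. Its main transcript ranged from 2375 CPM in CT16 replicate 2 to 3241 CPM in CT8 replicate 2, with a median of 3109 CPM, and apart from that lowest library the other 13 lay at or above 2829 CPM. The least-squares peak-to-trough difference was 0.11 ± 0.10 (SE, log2), and neither test passed (cosine adjusted p = 0.860, any change 0.906). With the total count as scale it ranged from 2279 to 4533 CPM, with a fitted swing of 0.47 (log2, adjusted p = 0.226). The 3 Ahsg transcripts have the same 5′UTR and 3′UTR counts and overlap in their CDS, and their cosine adjusted p ranged from 0.709 to 0.860. The profiles nearest to Ahsg were those of Masp2 (r = 0.904), Lamp1 (0.843) and Habp2 (0.830); Masp2 and Habp2 encode secreted serine proteases of plasma.

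Fetub, which encodes fetuin-B, a plasma inhibitor of the egg protease ovastacin, was as steady with TMM. It ranged from 232 to 306 CPM with a median of 261 CPM, and its highest mean was at CT8 (298 ± 10.96 CPM, n = 2). The least-squares peak-to-trough difference was 0.12 ± 0.09 (SE, log2), with adjusted p of 0.749 for the cosine and 0.907 for any change. With the total count as scale it ranged from 190 to 374 CPM. Its nearest profiles were those of Ctsa (r = 0.909), Apoh (0.829) and Lnpep (0.828).

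The Fetub transcripts have alternative first exons, whose footprints can be counted apart. Transcript NM_001083905 begins at an upstream exon, chr16:22918382-22918590, which makes up 209 nt of its 5′UTR, whereas NM_021564 and NM_001083904 begin at chr16:22920222-22920495. The sequences around the start codon (in capitals) that NM_001083905 and NM_021564 share are shown because they differ where the alternative first exons end, the A before the start codon being common.
Fetub NM_001083905, upstream first exon: tcaacgggactaATGggcctgctccga
Fetub NM_021564, downstream first exon: gcttacagtggaATGggcctgctccga
The 5′UTR of NM_001083905 held 7 reads in all 14 libraries (1 in CT8 replicate 2 and 6 in CT16 replicate 2), and 0 in the other 12. The 5′UTR of NM_021564 held 33471 reads, from 1496 to 3928 per library. The upstream leader thus held 0.0209% of both (exact 95% binomial interval 0.00841% to 0.0431%, counting error only). Without CT16 replicate 2, whose counts were all even, it held 1 of 31794 reads or 0.00315% (interval 8.0e-05% to 0.0175%). Footprints depend on how ribosomes occupy a leader as well as on its mRNA, so these shares do not measure start site use. The only TATA box found before Fetub lies before the upstream start site.
Fetub TATA box, chr16:22918351-22918356: tgtttgcaagaTATAAAagggcagtcag

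Lect2, a neutrophil chemotactic factor linked to insulin resistance, ranged from 24.5 CPM in CT20 replicate 1 to 39.1 CPM in CT8 replicate 1, with a median of 31.5 CPM. The least-squares peak-to-trough difference was 0.11 ± 0.16 (SE, log2), and neither test passed (cosine adjusted p = 0.902, any change 0.685). The CT20 pair, at 24.5 and 36.1 CPM, was the widest. Its nearest profiles were those of Fbxl4 (r = 0.819), Mynn (0.803) and Orc5 (0.797).

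One day apart, CT24 and CT0 gave no call for any member. Over all transcripts tested 0% passed after adjustment, with 873 (5.05%) at an unadjusted p under 0.05, of which none was a member, and DESeq2 called none of the members. The fitted CT24 minus CT0 difference ran from -0.84 (log2) for Fst to 0.30 for Lect2, with 0.00 for Angptl8 and adjusted p from 0.957 to 0.999. For Angptl8 that value averages a CT0 pair of 52.2 and 17.8 CPM, and it was -0.58 without CT0 replicate 2 and 0.96 without CT0 replicate 1.

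JTK_CYCLE, a rank test for rhythms with an exact null distribution, called other members than edgeR, and the scale decided which. Its adjusted P is corrected for the phases tried and not for the number of transcripts. With counts scaled by the library total this exact test called 22.2% of all transcripts at an adjusted P under 0.05, and 2 members, Inhbc (P = 0.0297, peak at 0 h) and Fst (P = 0.0439, peak at 23 h). Members are counted by their main transcript. For Ahsg the main transcript had an exact P of 0.0636 on that scale, while its other 2 transcripts each had 0.0439. With TMM the exact test called 17.7% of all transcripts and 1 member, Angptl4 (P = 0.0439, peak at 14 h). On the total scale Inhbc, Ahsg, Fetub and Lect2 all took a peak at 0 h, and with TMM theirs were at 16, 7, 10 and 10 h. None of the members passed when the P was adjusted over all transcripts, where 3.68% passed with TMM (lowest q = 0.167 for Inhbc with the total count and 0.248 for Angptl4 with TMM). Angptl8 had an exact P of 0.173 with the total count and 0.232 with TMM.

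Most footprints of the members lay in the CDS, but the share in the 5′UTR differed widely. Lect2 had 20.0% ± 3.98 (SD, n = 14 libraries) of its 5′UTR and CDS reads in the 5′UTR, Fetub 14.6% ± 1.47, Inhbe 14.1% ± 2.43, Angptl4 8.95% ± 1.83, Inhbc 8.13% ± 2.41 and Ahsg 3.31% ± 0.941. The median over 17029 transcripts with enough reads was 3.99%, and Lect2, Fetub and Inhbe were at the 87.5th, 81.1st and 80.3rd percentiles. Per nucleotide, the 5′UTR of Inhbe carried 0.762 times the reads of its CDS, Fetub 0.729, Angptl4 0.680, Lect2 0.664, Inhbc 0.652 and Ahsg 0.350, against a median of 0.351. The annotated 5′UTR of Angptl8 in the files is 8 nt long and held 89 of its reads. Reads in the 3′UTR made up 0.0280% of the total for Ahsg and 0.986% for Angptl8, the lowest and highest of the members with any.

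**Figure D5:**
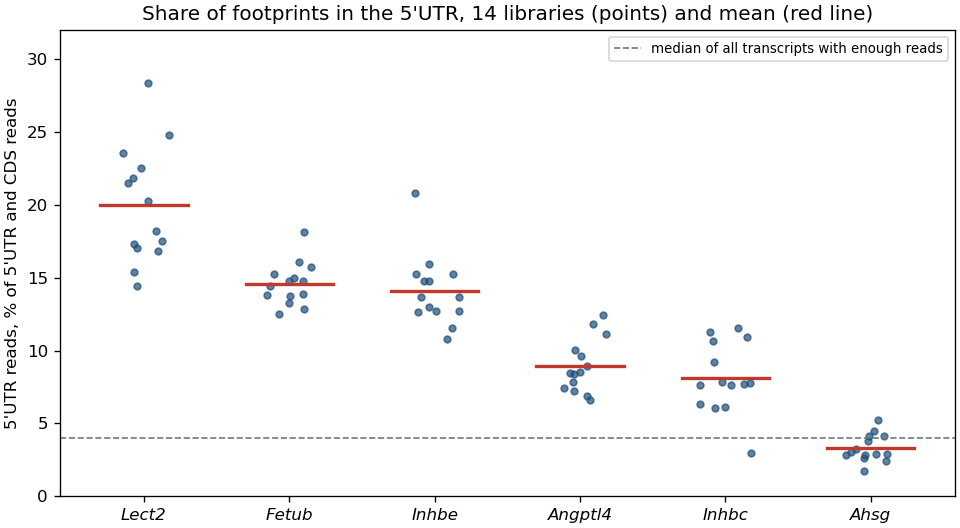
Reads in the 5′UTR as a percent of 5′UTR and CDS reads for the 6 members with enough reads in both regions. Points are the 14 libraries, red lines their mean, and the dashed line is the median of all transcripts with enough reads (3.99%). Lect2 (mean 20.0%) is highest and Ahsg (mean 3.31%) lies near the dashed line.

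Short open reading frames lie within the counted 5′UTR of some of these genes. Lect2 has 2 upstream ATGs, one opening a frame of 48 nt and the other a frame of 15 nt that begins 45 nt before the CDS. Angptl4 has an upstream frame of 111 nt and Inhbc one of 60 nt. In Fetub NM_021564 an ATG 45 nt before the CDS is in frame with it and meets no stop codon before it, so that the open frame runs through the annotated start over 1212 nt. The short Lect2 frame, at chr13:56548393-56548407, and the start codon contexts of Lect2 and Inhbe are shown since these genes held the highest 5′UTR shares with Fetub, whose context is given above; start codons are in capitals.
Lect2 upstream frame: ATGgagcaggtctaa
Lect2 CDS start: agcagaacctagATGattcccacaaca
Inhbe CDS start: tctacctggagcATGaagcttccaaaa
The upstream frames annotated in Inhbe and Fst begin 263 and 308 nt before the CDS, beyond the 227 and 144 nt that the files count as their 5′UTR, so the counts do not cover them. Reads at single positions are not in the files, and which frame the 5′UTR reads belong to cannot be read from them.

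No rhythm was called in the balance between 5′UTR and CDS, for the members or for any other transcript. Footprints in the 5′UTR over those in the CDS, as a log2 ratio, were fitted with a 24-h cosine in limma for 7640 transcripts, of which 0% passed (377, or 4.93%, at an unadjusted p under 0.05). Among the 6 members tested the adjusted p ran from 0.809 for Inhbc to 0.985 for Lect2. Inhbc had the largest fitted peak-to-trough difference of the ratio, 0.88 on the log2 scale, against a median of 0.85 over all transcripts tested, and Lect2 had 0.12. The Inhbc value was 0.54 without CT20 replicate 1 and 1.204 without CT20 replicate 2.

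Other genes of these pathways were read from lists, with the background share of 11.3% beside them. Of the receptors, partners and signal transducers of the members, 5 of 23 tested passed the cosine test (Lpl, Fgfr1, Tgfbr3, Klb and Fgfr2), with a median peak-to-trough difference of 0.48 (log2) against 0.44 over all transcripts. Lpl was the only one that passed on the total scale too. Insr, the insulin receptor gene, and Met, which encodes a receptor of LECT2, did not pass (adjusted p = 0.349 and 0.120).

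Of 16 other hepatokines, 4 passed, with a list median of 0.51 (log2). Hamp, which encodes the iron hormone hepcidin, went from 96.2 ± 44.7 CPM at CT0 to 272 ± 36.9 CPM at CT16 (n = 2 each, adjusted p = 0.00239). Tsku, the tsukushi gene, went from 21.7 ± 6.53 CPM at CT4 to 119 ± 58.7 CPM at CT16 (adjusted p = 0.00571). Serpinb1a was highest at CT0 (3.10 ± 0.244 CPM) and lowest at CT12 (0.362 ± 0.250 CPM, adjusted p = 0.00134). Fgl1, the hepassocin gene, passed with a fitted peak at 10.4 ± 1.52 h (adjusted p = 0.0182, and 0.131 with the total count as scale). Its pairs disagreed near that peak, with 81.2 and 217 CPM at CT8 and 229 and 87.3 CPM at CT12. The edgeR test for any change did not pass for Fgl1 (adjusted p = 0.121). Igfbp1, a fasting-responsive binding protein of insulin-like growth factors, passed the test for any change (adjusted p = 0.0195) with 23.9 and 35.2 CPM at CT20, its highest mean, and 4.57 and 1.27 CPM at CT16, its lowest. Its pair stood at 6.10 and 8.63 CPM at CT8 and disagreed at CT12, at 22.3 and 3.53 CPM.

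Of 21 transcription regulators of hepatokine genes, 6 passed the cosine test, with a list median of 0.44. Ppara, the fasting regulator upstream of Fgf21 and Angptl4, peaked at 11.1 ± 0.993 h (peak-to-trough 0.82 on the log2 scale, adjusted p = 0.00863), with its highest mean at CT8. Its coactivator Ppargc1a peaked at 12.0 ± 1.37 h (adjusted p = 0.0397), Foxo1 at 11.8 ± 0.997 h (0.00843) and Cebpb at 13.2 ± 1.14 h (0.0143). Nr1h4, the bile acid receptor gene, peaked at 15.8 ± 0.597 h (0.00295). Ppargc1a and Cebpb did not pass the edgeR test for any change (adjusted p = 0.243 and 0.0665). Nr1d1, the clock repressor REV-ERBα, had the widest swing of the 6, with a fitted peak at 8.54 ± 0.325 h (adjusted p = 2.66e-07), and was the only one of them to pass on the total scale as well. Atf4, Creb3l3, Mlxipl and Srebf1, regulators tied to amino acid, fasting and carbohydrate signals, did not pass with TMM (adjusted p = 0.419, 0.497, 0.0954 and 0.291); Mlxipl did on the total scale (0.0466).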

How the data were processed

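Ribosome profiling libraries of 14 mouse livers were analyzed. Per the study's methods and labels, reads were clipped, freed of rRNA with Bowtie2 2.1.0.0, aligned to mm10, filtered for exact matches with SAMtools 0.1.19.0 and assigned to an A site (reads of 26 to 32 nt). The authors deposited, without normalization, counts per 5′UTR, CDS and 3′UTR of each RefSeq transcript; how reads shared by transcripts were counted is not given in the sources used here, so isoforms overlap. The labels list 15 samples for 14 files; 1 is a second run of the CT16 replicate 2 liver, whose reads its label places in the file of that replicate.

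Region counts were added. edgeR 4.0.16 (TMM, quasi-likelihood F tests) in R 4.3.3, DESeq2 1.42.0, limma 3.58.1 (ratio with pseudocount 0.5) and JTK_CYCLE, written anew in Python 3.11.15 with numpy 2.4.6, were run on transcripts averaging 10 or more counts and checked on simulated data. The threshold was 0.05 after Benjamini-Hochberg adjustment over all transcripts tested, except for JTK_CYCLE. Its adjusted P is corrected only for the phases tried within a transcript, and its Benjamini-Hochberg q is given apart. Fitted peaks and swings of footprints come from the edgeR fits unless called least-squares. Phase errors and least-squares differences come from least-squares cosine fits to log2 CPM with prior count 2. Symbols were found for 27836 of 28167 transcripts.

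Members and lists were chosen with earlier results of these data known. Named were all members and genes of the 3 pathway lists past the cosine threshold, at most 6 per list. Marker lists are given as sums. The 3 nearest profiles, among genes with a mean of at least 100 counts, are named for each tested member except Fst and Inhbc. Lipc, Fgfr4, Insr, Met, Igfbp1, Atf4, Creb3l3, Mlxipl and Srebf1 were added after their values were seen. 1 further gene of the lists is not reported here. Alternatives were other scalings, filters, CDS reads only, 1 transcript per gene, CT16 replicate 2 halved, single libraries left out and the replicate number as a block.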

Additional observations from a re-analysis of the deposited data

How the results depend on the processing

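The number of transcripts with a cosine rhythm was 1947 of 17299 tested. It stayed within 1.5 times that count except with 1 transcript per gene (1251), where only 11747 were tested. Calls for any change, 1225, became 2198 with the total count, 2190 with DESeq2 and 2468 with no filter. They became 751 of the 11747 tested with 1 transcript per gene. CT24 against CT0 gave 0 calls, 1 with the total count, 2 with DESeq2, 1 with a mean of at least 1 count, 54 with no filter, and 0 to 2 with a library left out. JTK_CYCLE calls fell from 3840 to 384 by Benjamini-Hochberg q. With a library left out, rhythm calls ran from 1499 to 2058 and any-change calls from 856 to 1418, and the ratio test gave 0 throughout.

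Member counts are given with the calls over all transcripts in parentheses. With the total count 8.24% of transcripts passed the cosine test, and 12.7% passed the DESeq2 test for any change. With other filters the number of transcripts tested changed and is not given here, so those calls have no share beside them. Members with a cosine rhythm numbered 0, but 1 with the total count (1426), 1 with a mean of at least 1 count (1922) and 3 with no filter (2241). With a library left out they numbered 0 to 1. Members with any change numbered 2, 4 with no filter (2468) and 1 to 3 with a library left out. They numbered 3 with the total count (2198) and the DESeq2 test (2190), with Fst as the third member. A count of 3 was also reached with DESeq2 size factors (1239), CT16 replicate 2 halved (1229) and the replicate block (1286). A mean of at least 1 (1417) or 100 counts (1301) gave 3 as well. In these latter alternatives, from DESeq2 size factors on, the third member was Angptl4. JTK_CYCLE called 2 members (3840), 1 with TMM (3068), 0 by q (384) and 0 with CT24 left out (2689). Angptl4 passed the test for any change under 11 of 25 alternatives, Angptl8 under 25 of 25 and Inhbe under 24 of 25. The edgeR fit with no filter is among these alternatives but stood apart. Its adjusted p for any change was 1.48e-58 for Angptl8 (0.000556 in the main fit) and 2.05e-13 for Angptl4 (0.0503). Counted per kilobase of whole transcript, the level was 2008 for Ahsg, 171 for Fetub, 36.7 for Lect2 and 15.8 for Inhbc; the order of the 9 genes was the same.

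The replicate numbers did not pair the mice: correlations of deviations between times ran from -0.061 to 0.187 and 3 of 21 exceeded 0.1. With the replicate block, 1916 transcripts were called for rhythm, 1286 for any change and 6 for CT24 against CT0.

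Directions that turned were all of uncalled values. With the total count the cosine of Fetub was 0.36 (peak at 22.6 h) and of Lect2 0.43 (22.9 h), and without CT16 replicate 2 that of Ahsg was 0.033 (13.8 h; 0.033 to 0.156 over the left-out libraries). CT24 minus CT0 with the total count was -0.36 for Angptl8, -0.10 for Inhbe, -0.22 for Ahsg, -0.20 for Fetub and -0.0094 for Lect2. For Angptl8 it was -0.0074 with DESeq2 size factors, -0.013 with upper quartile, -0.0078 with the DESeq2 test, -0.011 with a mean of at least 100 counts, -0.024 with CDS reads only and -0.017 with the replicate block; it ran from -0.58 to 0.96 with a library left out. Left-out libraries gave -0.17 to 0.048 for Inhbc and -0.0016 to 0.50 for Inhbe. The cause was not tested. Fgf21, at 32 reads, and Fst are limited by depth.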
